A study of Mus musculus with 12 samples.

Results

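Type I interferon-stimulated genes are described here in the mouse colon across 4 genotypes. The set is a list of 35 genes matched by symbol. Each member was read from a probe set, a group of array probes summarised into 1 value, that carries that single symbol in the platform annotation, and where a gene had several the brightest by its mean over 12 arrays was used. By that rule 32 of the 35 members were measured, among 22180 genes tested. Oas1a and Dtx3l have only a probe set shared with a neighbouring gene, and Ifi44 is not named by any probe set in the annotation used here. RNA came from the colon of mice that were IL10+/+ STING+/+ (WT), IL10-/- STING+/+ (IL10KO), IL10+/+ STING-/- (SKO) or IL10-/- STING-/- (DKO), with 3 arrays per genotype. Loss of IL-10 and loss of STING are the only alleles the labels give, and all groups share the tissue. The labels give no age, strain or colon segment and leave it unsaid if each array is a different animal, and the p-values therefore reflect only the spread between these samples, which may be technical. Values are log2 signals, and a difference of 1 is a 2-fold change.

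Type I interferons are cytokines made when cells sense viral or misplaced nucleic acids, and STING is the adaptor that carries the signal of cytosolic DNA, through the kinase TBK1 and the factor IRF3, to the interferon genes. Secreted interferon binds the receptor IFNAR1 and IFNAR2, and the kinases JAK1 and TYK2 then activate STAT2, which joins IRF9 and binds interferon-stimulated response elements in the promoters of the genes described here. In the gut these genes are expressed in epithelial and immune cells, and interleukin 10 restrains inflammatory signalling of myeloid cells, so that mice without it develop colitis.

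The promoters of the 5 members printed here carry the letters of that response element and belong to genes whose values are given below. In RefSeq windows of assembly GRCm38.p6, from 250 bases before to 50 bases after each gene's start, the 10-base motif GAAANNGAAA was searched on both strands. Windows were found for 27 of the 35 members, and 12 of them (44.4%) held the motif, against 1079 of 27025 genes (3.99%) and 1131 of 32851 windows (3.44%). Each line gives the 140 bases before the start in the gene's own direction, 5′ to 3′, with the motif, or its reverse complement TTTCNNTTTC, in capitals; in Oas1g, Isg15 and Bst2 matches overlap and run together.
Oas1g, chr5:120887614-120887753, minus strand: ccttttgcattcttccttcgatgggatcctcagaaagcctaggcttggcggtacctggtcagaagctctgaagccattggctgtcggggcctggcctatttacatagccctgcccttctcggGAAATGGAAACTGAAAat
Ifit1, chr19:34640749-34640888, plus strand: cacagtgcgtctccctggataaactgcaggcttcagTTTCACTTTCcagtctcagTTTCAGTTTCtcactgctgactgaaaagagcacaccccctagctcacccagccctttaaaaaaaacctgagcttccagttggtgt
Rsad2, chr12:26456453-26456592, minus strand: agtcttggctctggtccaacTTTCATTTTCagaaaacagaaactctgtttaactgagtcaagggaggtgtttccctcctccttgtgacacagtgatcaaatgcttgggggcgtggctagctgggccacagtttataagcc
Isg15, chr4:156200819-156200958, minus strand: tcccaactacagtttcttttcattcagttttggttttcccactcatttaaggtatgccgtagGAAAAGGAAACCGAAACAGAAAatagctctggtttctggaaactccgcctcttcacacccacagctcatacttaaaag
Bst2, chr8:71537473-71537612, minus strand: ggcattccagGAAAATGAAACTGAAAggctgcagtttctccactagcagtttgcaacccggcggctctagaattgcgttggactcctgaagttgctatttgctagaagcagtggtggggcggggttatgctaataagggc
Oas1g, Isg15 and Bst2 hold matches that overlap, while Ifit1 holds 2 separate ones and Rsad2 holds 1. A match is a run of letters and not a measured binding site. The 5 genes did not share 1 pattern across the arrays, as the values below show.

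Sting1, the gene deleted in SKO and DKO, read between 4.28 and 4.40 on the SKO arrays and between 4.13 and 4.34 on the DKO arrays. It read 6.87, 8.09 and 7.33 in IL10KO and 7.51, 6.40 and 4.56 in WT. The third of these, the library labelled WT replicate 3, lay next to the knockout range, so several of the main values that use WT are followed by the value without this array. Where none follows, a value that uses WT may still depend on it. Epithelial markers averaged 10.51 to 10.75 over 12 genes on the IL10KO arrays and 11.01 to 11.25 on the other 9. The markers did not move alike in IL10KO against WT. Car1 (-1.61), Aqp8 (-1.26) and Slc26a3 (-0.96) were lower, and Cdh1 (-0.37) and Vil1 (-0.33) were lower by less. Epcam (-0.02) and Krt8 (0.03) differed little, and Krt20 (0.18) leaned the other way. Smooth muscle markers averaged 9.87 to 10.11 in IL10KO and 10.67 to 10.98 elsewhere. Neutrophil markers averaged 5.92 to 7.17 over 10 genes in IL10KO and 4.50 to 4.65 elsewhere. Enzymes typical of pancreatic acinar cells averaged 8.23 on WT replicate 1, 10.88 on WT replicate 2 and 4.76 to 5.63 on the other 10 arrays. In whole colon, fewer cells of a type and less RNA per cell cannot be told apart.

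The interferon-stimulated genes varied more from array to array within WT and within SKO than between the genotypes. Each array was described by the median, over the 32 genes, of its deviation from the gene's own median over the 12 arrays. This was 0.71, -0.07 and -0.32 on the WT arrays, -0.10, -0.09 and 0.05 in IL10KO, -0.36, -0.49 and 0.21 in SKO, and 0.05, 0.45 and 0.12 in DKO. WT replicate 1 was the highest of the 12 arrays for 16 of the 32 genes and lay above the gene's median for 29. SKO replicate 2 was the lowest for 14 genes, and DKO replicate 2 lay above the median for 31. The spread between replicates, pooled over the genotypes, was 0.345 (SD), more than the members' median difference in 4 of the 5 comparisons of genotypes made below. That SD describes single arrays and not the error of a difference between genotype means, so it does not test those differences. It also pools unlike groups. The SD of the mean level over the 32 genes was 0.495 in WT and 0.449 in SKO, against 0.062 in IL10KO and 0.234 in DKO. For DKO against IL10KO the pooled value therefore overstates the spread of the arrays compared. IL10KO was the most even group, with mean levels over the 32 genes between 6.51 and 6.62, against 6.31 to 7.25 in WT, 6.15 to 6.99 in SKO and 6.74 to 7.19 in DKO. WT replicate 1 also read high for genes induced by interferon-gamma (mean 7.75, against 6.21 and 5.85 on the other WT arrays), for B and plasma cell markers (7.49, against 6.46 and 6.24) and for T and natural killer cell markers (5.54, against 4.86 and 4.54). The part of these in the members' values on that array was not tested.

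**Figure D1:**
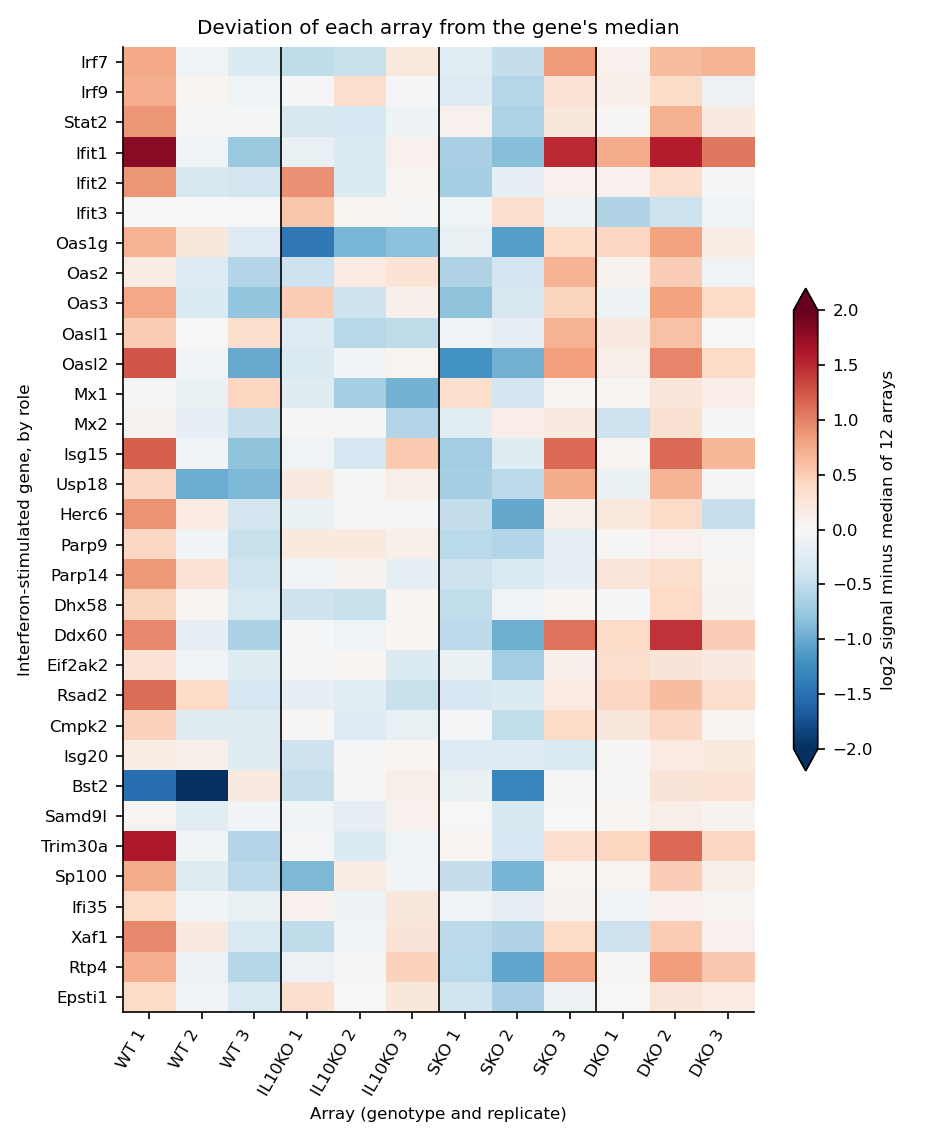
Deviation of each array (columns, 3 per genotype) from the gene's median over 12 arrays, in log2 units by colour, for the 32 measured interferon-stimulated genes (rows, by role). WT 1, SKO 3 and DKO 2 are red for most genes and SKO 1 and SKO 2 blue, while Ifit3, Mx1 and Bst2 do not follow the other rows.

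Loss of IL-10 where STING was present (IL10KO against WT) came with 1 call among the interferon-stimulated genes, a fall of Oas1g. Oas1g, an oligoadenylate synthetase whose product activates the RNA-cleaving enzyme RNase L, read 8.42, 7.95 and 7.47 in WT and 6.30, 6.82 and 6.91 in IL10KO. The 3 IL10KO arrays lay below all WT arrays. The difference was -1.27 ± 0.33 (SE; limma adjusted p = 0.0322), or 2.42-fold lower. A call is an adjusted p under 0.05 over all genes tested, and in this comparison 3.12% of all genes were called higher and 5.01% lower, so that 1 of 32 is no larger a share than the background. The 3 arrays of IL10KO lay above those of WT for 1 member, Ifit3, and below them for 4, which is 3.12% and 12.5% of the members, beside 14% and 16% of all genes. The median difference of the members was -0.12, with 12 above 0 and 20 below, and that of all genes was 0.03. This direction turned without WT replicate 1, when the median was 0.14 and 23 of 32 differences were above 0, and leaving out the library labelled WT replicate 3 gave -0.36. Without the latter 3 members were called, Oas1g (-1.51, adjusted p = 0.0327) and Rsad2 (-1.03, adjusted p = 0.0211) lower and Bst2 higher (1.83, adjusted p = 0.0119), where 1.61% of all genes were called higher and 2.39% lower. The Oas1g call was lost without WT replicate 1 (-1.04, adjusted p = 0.117), WT replicate 2 (adjusted p = 0.0895), IL10KO replicate 1 (adjusted p = 0.108) or IL10KO replicate 3 (adjusted p = 0.0551).

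Loss of STING where IL-10 was absent (DKO against IL10KO) is the pair of genotypes the series' design text names. Here the only member called was again Oas1g, which read 8.15, 8.54 and 7.88 in DKO, above all IL10KO arrays, and rose by 1.51 ± 0.33 (SE; limma adjusted p = 0.0182), or 2.86-fold. Both Oas1g calls use the same IL10KO arrays, so they are not independent of each other. Of all genes 3.34% were called higher and 2.45% lower, and the members' share of 3.12% lies near that background. The median difference of the members was 0.33, with 27 above 0 and 5 below, beside -0.04 over all genes. The DKO arrays lay above all IL10KO arrays for 11 members (34.4%), beside 13.4% of all genes, and below them for 2, Ifit3 and Parp9 (6.25%, beside 13.8%). Leaving out each array in turn kept the median between 0.25 and 0.39. Mx1, Ifit1, Rsad2 and Oasl1 were called higher in DKO in some alternatives, and Ifit3 was called lower, as given with their values. The Oas1g call was lost without IL10KO replicate 1 (adjusted p = 0.0592), DKO replicate 1 (adjusted p = 0.0677) or DKO replicate 2 (adjusted p = 0.0835). Neutrophil markers were called lower for 8 of 10 genes in this comparison and epithelial markers higher for 4 of 12, and their part in the members' values was not tested.

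**Figure D2:**
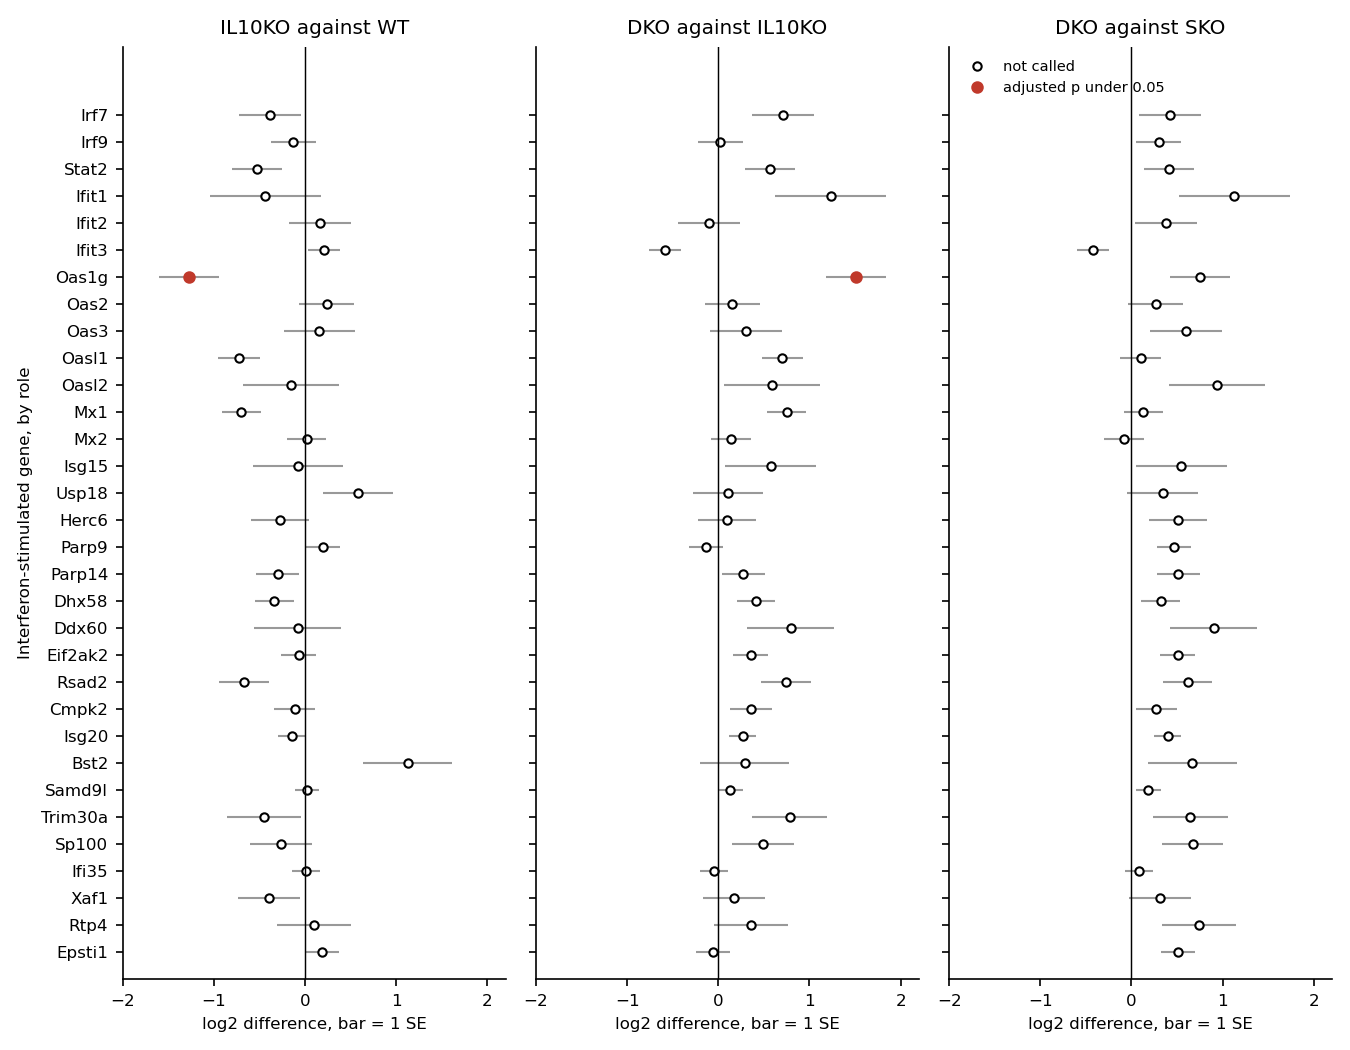
Log2 difference of each of the 32 measured interferon-stimulated genes (rows, by role) in 3 comparisons, with bars of 1 SE from the fit over 12 arrays and filled points for adjusted p under 0.05. Oas1g is the only filled point, at -1.27 in IL10KO against WT and 1.51 in DKO against IL10KO, and nearly all points of DKO against SKO lie right of 0.

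By role, the factors that switch the other members on came first. Irf7, which amplifies interferon production, had means of 8.72 in WT, 8.34 in IL10KO, 8.63 in SKO and 9.05 in DKO, with SDs of 0.55, 0.40, 0.70 and 0.33. Its difference between DKO and IL10KO was 0.71 ± 0.34 (SE; limma adjusted p = 0.218) and the arrays of the groups overlapped. Stat2 differed by 0.57 ± 0.27 (SE; limma adjusted p = 0.219) with the DKO arrays all above those of IL10KO, and Irf9, its partner, by 0.02 ± 0.25. None of the 3 factors passed the test in any comparison.

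Among the IFIT proteins, which bind foreign RNA, Ifit1 had the widest spread of all members. It read 8.04, 6.15 and 5.50 in WT, 6.09, 5.96 and 6.32 in IL10KO, 5.59, 5.38 and 7.72 in SKO, and 6.97, 7.81 and 7.29 in DKO. Every DKO array lay above every IL10KO array, but 1 WT array and 1 SKO array were as high as DKO. Its difference between DKO and IL10KO was 1.23 ± 0.61 (SE; limma adjusted p = 0.23) over all 12 arrays; with IL10KO and DKO fitted alone, where the wide WT and SKO arrays do not enter the SE, the same difference had an adjusted p of 0.0244, where 1.22% of all genes were called higher and 0.983% lower. Ifit3 ran the other way, at 6.33, 5.83 and 5.80 in IL10KO and 5.18, 5.34 and 5.68 in DKO, a difference of -0.58 ± 0.18 (SE; limma adjusted p = 0.0722). Without SKO replicate 2 the same difference passed the test (limma adjusted p = 0.0493). Ifit2 differed by -0.11 ± 0.34.

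The oligoadenylate synthetases and their like made up the group with the only call. SKO read 7.58, 6.63 and 8.09 for Oas1g, overlapping WT, IL10KO and DKO. The genotype means were 7.95 ± 0.47, 6.68 ± 0.33, 7.43 ± 0.74 and 8.19 ± 0.33 (SD, n = 3) in WT, IL10KO, SKO and DKO. The shared probe set of Oas1a and Oas1g read 7.05, 6.24 and 6.26 in WT, 5.82, 5.95 and 6.37 in IL10KO, 6.55, 5.37 and 6.70 in SKO, and 6.83, 6.72 and 6.86 in DKO. DKO again lay above IL10KO on that probe set, while WT and IL10KO overlapped, and since the 2 genes are near copies their signals may not be separable. Oasl1, which limits translation of Irf7, read 6.57, 6.29 and 6.33 in IL10KO, below all WT arrays (7.34, 6.83 and 7.20) and all DKO arrays (7.02, 7.42 and 6.85). Its differences of -0.73 ± 0.23 (IL10KO against WT; limma adjusted p = 0.0637) and 0.70 ± 0.23 (DKO against IL10KO; limma adjusted p = 0.0838) were not called. Oasl2, an antiviral relative that follows the other members closely, read 9.07, 7.75 and 6.82 in WT, 7.53, 7.77 and 7.86 in IL10KO, 6.61, 6.86 and 8.64 in SKO, and 7.93, 8.79 and 8.21 in DKO. The span of the WT arrays took in all IL10KO and DKO arrays. Oas2 and Oas3 differed by 0.15 ± 0.30 and 0.30 ± 0.39 between DKO and IL10KO.

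Mx1, a GTPase that blocks viral nucleoproteins, was dim, at 4.35, 4.27 and 4.82 in WT, 4.16, 3.73 and 3.46 in IL10KO, 4.74, 4.03 and 4.45 in SKO, and 4.44, 4.63 and 4.53 in DKO. Its IL10KO arrays lay below those of both WT and DKO, with differences of -0.70 ± 0.21 (limma adjusted p = 0.0598) and 0.75 ± 0.21 (limma adjusted p = 0.0552). These missed the threshold by little, and after quantile normalization they passed it, at -0.80 (adjusted p = 0.0419) and 0.87 (adjusted p = 0.0379). The difference from WT was -0.53 (adjusted p = 0.205) when the library labelled WT replicate 3 was dropped, and the difference between DKO and IL10KO also passed with centred arrays (0.84, adjusted p = 0.0427). Many laboratory mouse strains carry a defective Mx1, and the labels give no strain. Mx2 differed by 0.02 ± 0.22 and 0.14 ± 0.22 in the same comparisons.

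Of the ISG15 system, Isg15 is the ubiquitin-like protein, Herc6 its ligase and Usp18 the protease that removes it and dampens the receptor. Isg15 read 7.88, 6.63 and 5.88 in WT, 6.60, 6.35 and 7.21 in IL10KO, 5.99, 6.44 and 7.81 in SKO, and 6.73, 7.81 and 7.34 in DKO. The groups overlapped. Usp18 was even within IL10KO, at 6.28, 6.07 and 6.22, against 6.52, 5.12 and 5.20 in WT, and its difference between these groups was 0.58 ± 0.39 (SE). Parp9 and Parp14 are ADP-ribosyltransferase family members, and Parp9 works with the ubiquitin ligase Dtx3l. The shared probe set of Dtx3l and Parp9 read 8.30, 7.79 and 7.46 in WT, 7.86, 8.07 and 7.47 in IL10KO, 7.55, 7.54 and 7.81 in SKO, and 7.98, 8.28 and 7.85 in DKO, and its groups overlapped apart from SKO lying below DKO. Among the RNA sensors, Ddx60, a helicase that aids RIG-I, read 6.88, 5.76 and 5.28 in WT, 5.88, 5.83 and 5.96 in IL10KO, 5.40, 4.94 and 7.01 in SKO, and 6.30, 7.36 and 6.40 in DKO. Every DKO array lay above every IL10KO array, with a difference of 0.80 ± 0.48 (SE; limma adjusted p = 0.315). The same held for Eif2ak2, the kinase PKR that halts translation, at 0.35 ± 0.20 (limma adjusted p = 0.28), while Dhx58 (LGP2) overlapped, at 0.41 ± 0.21.

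The other antiviral effectors included the member with the largest difference from WT. Bst2, the tetherin that holds budding virions at the membrane, read 6.65, 5.78 and 8.34 in WT, 7.69, 8.17 and 8.27 in IL10KO, 8.01, 6.85 and 8.14 in SKO, and 8.17, 8.41 and 8.42 in DKO. The 2 low WT arrays are those with the pancreatic acinar signal of 8.23 and 10.88, and its part in Bst2 was not tested. Its differences from WT were 1.12 ± 0.49 in IL10KO (SE; limma adjusted p = 0.164) and 1.41 ± 0.49 in DKO (SE; limma adjusted p = 1). Without the library labelled WT replicate 3 they were 1.83 (adjusted p = 0.0119) and 2.12 (adjusted p = 0.02). Rsad2, or viperin, which makes a chain-terminating nucleotide, read 7.27, 6.55 and 5.82 in WT, 5.99, 5.94 and 5.71 in IL10KO, 5.82, 5.88 and 6.33 in SKO, and 6.58, 6.78 and 6.51 in DKO. DKO lay above both IL10KO and SKO on every array, by 0.75 ± 0.27 (limma adjusted p = 0.118) and 0.62 ± 0.27 (limma adjusted p = 0.998). Without the library labelled WT replicate 3, Rsad2 passed the test in IL10KO against WT (-1.03, adjusted p = 0.0211) and in DKO against IL10KO (0.75, adjusted p = 0.0491), and with IL10KO and DKO fitted alone the latter had an adjusted p of 0.0425. Trim30a, a TRIM protein, read 5.08, 3.41 and 2.89 in WT, 3.43, 3.20 and 3.39 in IL10KO, 3.51, 3.12 and 3.81 in SKO, and 3.90, 4.59 and 3.88 in DKO, again with WT replicate 1 the highest array. Cmpk2, Isg20, Samd9l and Sp100 had differences of 0.13 to 0.49 between DKO and IL10KO, and none was called. Dimmer probe sets of Sp100 did not all follow the one used. One ran the other way, at 3.24, 4.08 and 3.79 in IL10KO and 2.90, 2.37 and 2.96 in DKO. Another leaned the same way, at 5.58, 6.35 and 6.19 in IL10KO and 6.58, 6.65 and 6.29 in DKO. On the dimmest these groups overlapped. Of the rest, Ifi35, Xaf1, Rtp4 and Epsti1 lay between -0.055 and 0.36 in DKO against IL10KO.

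**Figure D3:**
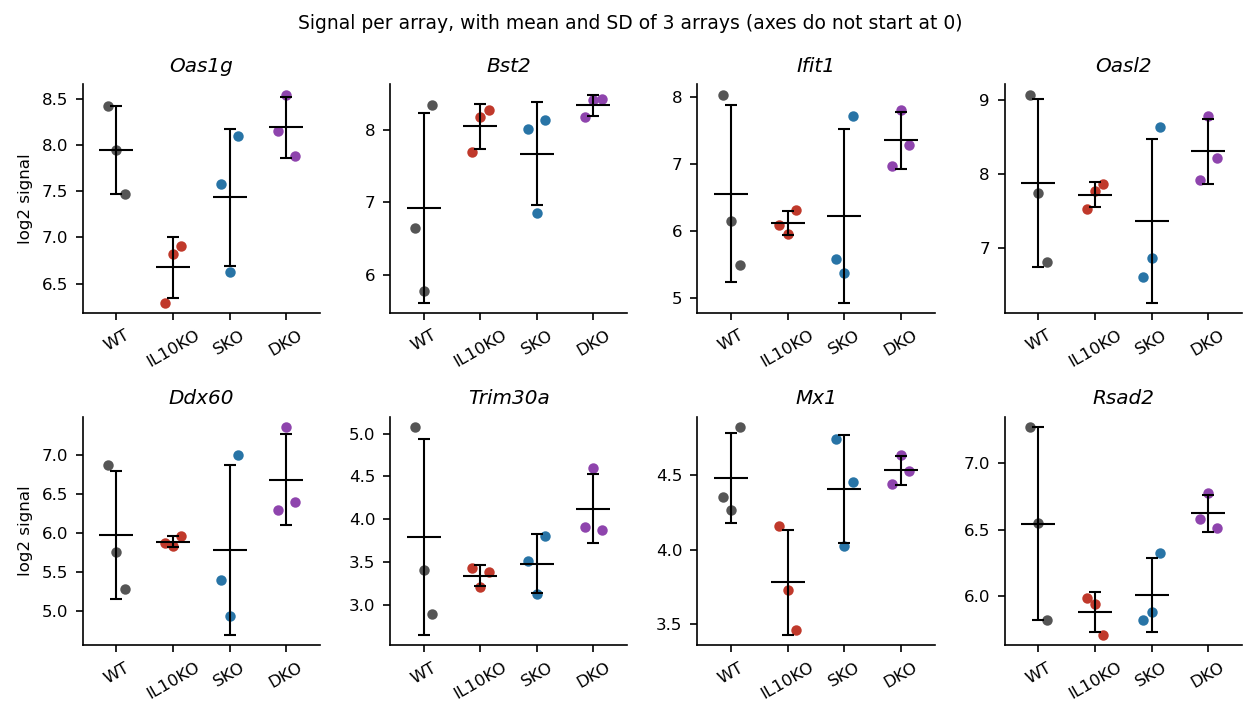
Log2 signal on each of 3 arrays per genotype (points), with the mean and SD (bar), for the 8 members given array by array. The mean of Oas1g is lowest in IL10KO, though 1 SKO point lies among the IL10KO points. The WT and SKO points of Ifit1, Oasl2 and Ddx60 span those of IL10KO, and Bst2 has its 2 lowest points in WT.

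In the 3 other comparisons of genotypes and in the interaction no member was called over all 12 arrays. DKO against WT gave a median of 0.15 over the members, with 25 of 32 above 0, where 0.0406% of all genes were called higher and 0.00451% lower. That median was 0.43 without WT replicate 1 and 0.00 when the library labelled WT replicate 3 was dropped, when Bst2 was called. SKO against WT gave a median of -0.26, with 27 of 32 below 0, and no gene at all was called (0% higher and 0% lower). At an unadjusted p under 0.05, limma found 3 members lower there, Parp14, Parp9 and Herc6, and none higher, where 0.947% of all genes were lower and 1.1% higher at that threshold. The SKO median was 0.04 with WT replicate 1 left out and -0.52 when the library labelled WT replicate 3 was dropped. DKO against SKO, the loss of IL-10 where STING was absent, gave the largest median of these comparisons, 0.44, with 30 of 32 above 0, beside -0.03 over all genes. The 3 DKO arrays lay above the 3 SKO arrays for 10 members (31.2%) and below them for 0, beside 4.87% and 6.28% of all genes. They included Epsti1 (0.51 ± 0.19; SE), Isg20 (0.40 ± 0.15), Eif2ak2 (0.51 ± 0.20) and Parp9 (0.47 ± 0.19). The lowest adjusted p of a member in that comparison was 0.945 (limma), where 0.0361% of all genes were called higher and 0.00902% lower. With arrays weighted by how well they fit their group, an iteration that stopped before it converged, 14 members passed the test in it, all higher in DKO, where 3.2% of all genes were called higher and 5.55% lower. Other lists leaned the same way in this comparison. Interferon-gamma-induced genes had a median of 0.75 with 17 of 18 above 0 and the arrays apart for 12, the further type I genes had 0.22 with 35 of 39 above 0, and B and plasma cell markers had 0.55 with all 9 above 0. Their part in the members' values was not tested.

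The interaction asks whether the difference that loss of IL-10 made was the same with and without STING, as (DKO minus SKO) minus (IL10KO minus WT). It was above 0 for 28 of 32 members with a median of 0.64, and no member was called, where 0.28% of all genes were called higher and 0.365% lower. Oas1g came nearest, at 2.03 ± 0.47 (SE; limma adjusted p = 0.0722), followed by Rsad2 at 1.28 ± 0.39 (limma adjusted p = 0.166). When the library labelled WT replicate 3 was dropped both passed, Oas1g at 2.27 (adjusted p = 0.0485) and Rsad2 at 1.65 (adjusted p = 0.0244), where 0.374% of all genes were called higher and 0.383% lower. Oas1g also passed without SKO replicate 3 (2.36, adjusted p = 0.0441) and with array weights (1.88, adjusted p = 0.0213). Leaving out each array in turn gave medians between 0.40, without WT replicate 1, and 0.81. The interaction uses all 4 genotypes and so takes in WT replicate 1 and the library labelled WT replicate 3.

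**Figure D4:**
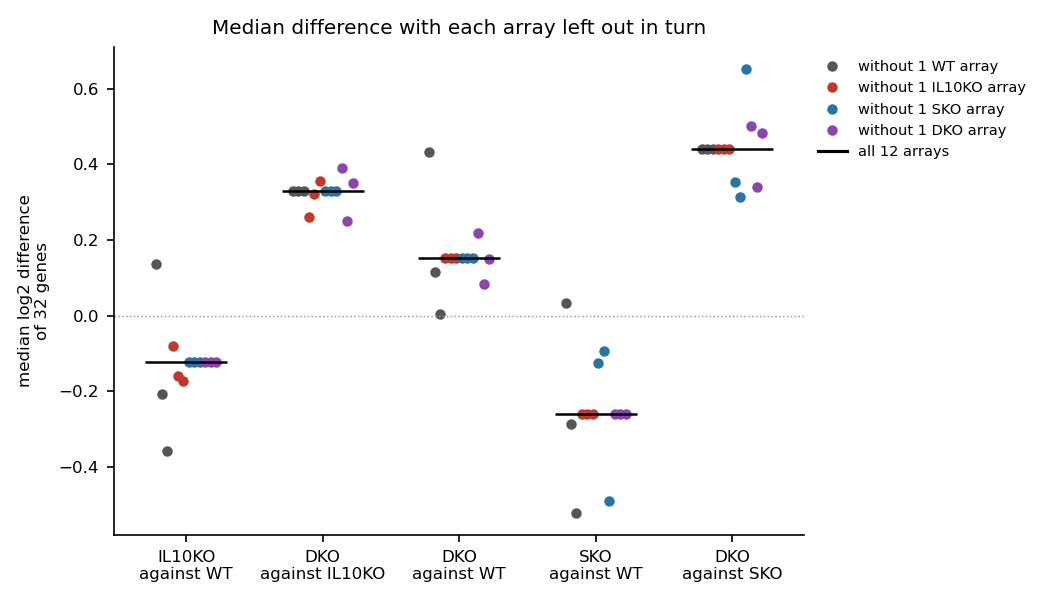
Median log2 difference over the 32 interferon-stimulated genes in 5 comparisons, with all 12 arrays (line) and with each array left out in turn (points, coloured by the genotype of the array left out). The median of IL10KO against WT runs from -0.36 to 0.14, that of DKO against WT from 0.00 to 0.43 and that of SKO against WT from -0.52 to 0.04, while that of DKO against IL10KO stays between 0.25 and 0.39.

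Genes of the same pathway that act before or against the members were called only on the lists of interferon induction and of negative regulators. Of 18 measured ligands of type I and type III interferon none passed the test in any comparison. Ifnb1, interferon beta, was dim at 2.42 to 3.08 on all arrays, and it differed by 0.37 ± 0.13 in IL10KO against WT (limma adjusted p = 0.0908) and by -0.46 ± 0.13 in DKO against IL10KO (limma adjusted p = 0.0505). Of 9 receptors and kinases none was called; Ifnar2 differed by -0.57 in DKO against IL10KO (limma adjusted p = 0.0576). Of 14 genes that sense nucleic acids or induce interferon, Mavs, the adaptor of RNA sensing, fell by 0.72 in IL10KO against WT (limma adjusted p = 0.0273) and rose by 0.67 in DKO against IL10KO (limma adjusted p = 0.0462), and Sting1 fell by 3.20 in the latter (limma adjusted p = 0.00344). Of 11 negative regulators, Socs3, which blocks JAK kinases, rose by 1.54 in IL10KO (limma adjusted p = 0.00462) and fell by 1.48 in DKO against IL10KO. Foxo3 moved the other way, at -0.69 and 0.72, so that 18.2% of this short list was called in each comparison. Of all genes 3.12% were called higher and 5.01% lower in IL10KO against WT, and 3.34% and 2.45% in DKO against IL10KO. The Mavs call was lost when any of the 3 WT arrays, IL10KO replicate 1 or IL10KO replicate 3 was left out in IL10KO against WT (adjusted p up to 0.0932), and any array but IL10KO replicate 2, SKO replicate 2 or DKO replicate 3 in DKO against IL10KO (up to 0.19). The Foxo3 call was lost in IL10KO against WT without WT replicate 2 or the library labelled WT replicate 3 (adjusted p up to 0.0607), and in DKO against IL10KO without DKO replicate 1 or DKO replicate 2 (up to 0.0728).

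Other interferon-stimulated genes outside the 35 gave medians of -0.01 in IL10KO against WT and 0.10 in DKO against IL10KO over 39 measured genes. Ifitm1, which blocks viral entry, rose by 1.07 and fell by 1.07 in these comparisons, Tor3a went the other way at -0.71 and 0.88, and Ifit1bl1, a relative of Ifit1, rose by 1.43 ± 0.22 in DKO against IL10KO (limma adjusted p = 0.00252). The signal of Ifit1bl1 was 10.45 ± 0.30 in WT, 9.70 ± 0.26 in IL10KO, 10.13 ± 0.44 in SKO and 11.14 ± 0.16 in DKO (SD, n = 3). It was lowest in IL10KO and highest in DKO, as Oas1g was, with no overlap between these 2 groups. Genes induced by interferon-gamma, a different interferon, had a median of 0.68 over 18 measured genes in IL10KO against WT, where Cxcl9 and Nos2 rose by 2.66 and 2.65, and of -0.50 in DKO against IL10KO, where Nos2 fell by 1.86. The Cxcl9 call was lost without WT replicate 2 (adjusted p = 0.0548), and that of Tor3a in IL10KO against WT without WT replicate 1 or the library labelled WT replicate 3 (adjusted p up to 0.0513). WT replicate 1 had the highest mean of the WT arrays for these genes (7.75, above the IL10KO arrays at 7.24 to 7.58), so leaving it out widened the difference. Without WT replicate 1, 12 of the 18 were called higher in IL10KO and the list's median was 1.25, where 1.94% of all genes were called higher and 2.54% lower. The list's value without the library labelled WT replicate 3 is not given here. The type I set, by contrast, had a median of 0.14 and no call there; the difference between the lists was not tested.

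Some markers of other cells were called in the same comparisons. The background over all genes was 3.12% called higher and 5.01% lower in IL10KO against WT, and 3.34% and 2.45% in DKO against IL10KO. In IL10KO against WT, 8 of 10 neutrophil markers rose, led by S100a8, Retnlg, S100a9 and Mmp8, as did Fcgr1 and C1qa of 12 macrophage markers, Cd3g, Klrb1c and Cd3d of 11 T and natural killer cell markers, and Mzb1 of 9 B and plasma cell markers. Lower calls were made for Car1, Aqp8 and Slc26a3 of 12 epithelial markers, for 6 of 8 smooth muscle markers, led by Synpo2, Des, Smtn and Actg2, and for 5 of 13 acinar enzymes, led by Pnliprp1, Cpb1, Pnliprp2 and Clps. In DKO against IL10KO, 8 neutrophil markers and Fcgr1 fell, while 6 smooth muscle markers, Clps and Aqp8, Car1, Guca2a and Slc26a3 rose. Plasmacytoid dendritic cells are the strongest makers of type I interferon, and of 10 of their markers only Klk1, also a kallikrein of gut epithelium, was called, lower in IL10KO against WT and higher in DKO against IL10KO. The mean of these 10 was 5.79 to 6.19 in IL10KO and 5.74 to 6.23 on the other arrays. On lists this short a lone call, such as that of Mzb1 or Klk1, cannot be told from the background.

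**Figure D5:**
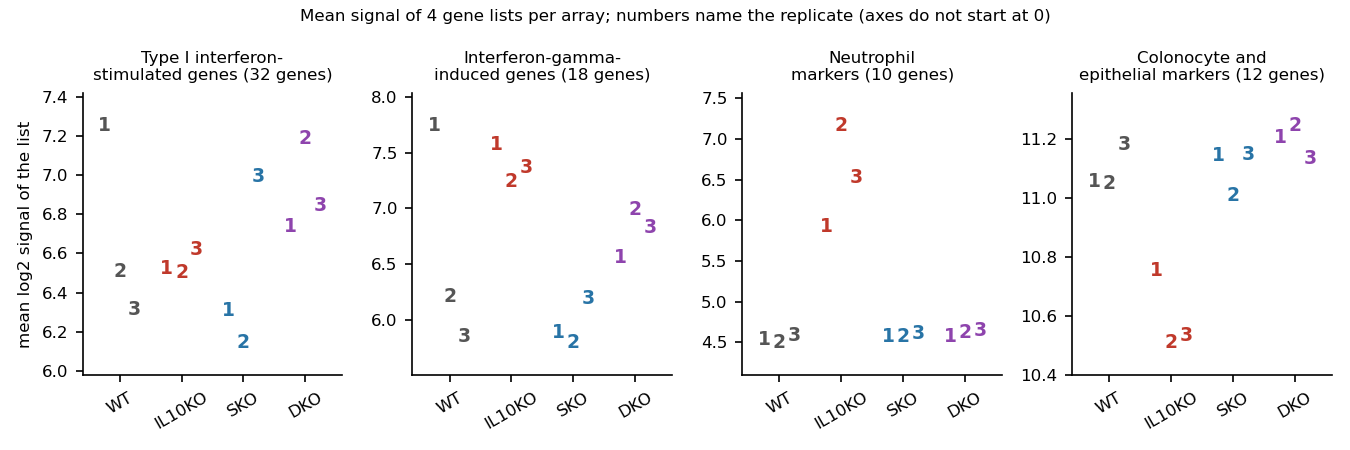
Mean log2 signal per array of 4 gene lists (numbers name the replicate of each genotype): the 32 type I interferon-stimulated genes, 18 interferon-gamma-induced genes, 10 neutrophil markers and 12 epithelial markers. Neutrophil markers are high and epithelial markers low on the 3 IL10KO arrays, while the type I set is highest on WT 1 and DKO 2.

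Most members varied together over the arrays. The correlation of a member with the mean of the others over 12 arrays, given as a description since the arrays share genotypes, was 0.98 for Ifit1, 0.97 for Ddx60 and 0.957 for Oasl2. It was 0.39 for Mx2, 0.132 for Mx1, 0.036 for Bst2 and -0.506 for Ifit3, which ran against the rest, and 0.689 for Oas1g. Outside the set the genes most like the members' mean were Apol9b (r = 0.926, or 0.894 without WT replicate 1 and DKO replicate 2, the arrays farthest from the median), Rnf213 (0.904, or 0.777), Atf3 (0.896), Atp6v1d (0.892), Adar (0.878), Casp1 (0.877), Hnrnpu (0.87), Kif15 (0.864), Slc25a11 (0.859) and Etfa (0.857). Apol9b, Rnf213 and Adar are themselves known interferon-stimulated genes and stood on the longer list.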

How the data were processed

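Colon RNA of 12 samples was hybridised to Affymetrix whole-transcript arrays, labelled with the WT PLUS kit per the labels' protocols. The deposited table holds log2 signals per probe set; per the submitters' processing notes, the authors used Affymetrix Expression Console, version 1.3.1.187. The log2 scale is read from the range of the values. The sources used here give no background correction, normalization or genome build. Array medians ran from 4.80 to 5.02, the table used here holds no detection calls, and 3 arrays per genotype limit the precision.

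Of 41345 probe sets, 23521 carry 1 symbol, 1814 several and 16010 none, and the brightest single-symbol probe set stood for each of 22180 genes. Differences were fitted with limma 3.58.1 (R 4.3.3; lmFit, contrasts.fit and eBayes) on 4 genotype means over all 12 arrays, 8 residual and 5.56 prior degrees of freedom, two-sided, with Benjamini-Hochberg adjustment over all genes and calls under 0.05. The fit was tested on simulated data. The members and the other lists were chosen with earlier results of these data known. Array by array values are given for members called in any comparison and then those with the widest range of genotype means, up to 8; Ifit3, Isg15, Oasl1 and Usp18 were added after their values were seen. Of the other lists called genes are named, at most 4 per comparison by size. Promoters came from RefSeq windows. Alternatives were other normalizations, filters, probe set rules, samples, array weights, variance priors and left-out arrays. Replicate numbers only name arrays.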

Additional observations from a re-analysis of the deposited data

Results flagged for a closer look

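For 8 genes on the lists the effect of losing IL-10 differed between mice with and without STING, by the interaction of the limma fit over 12 arrays, and none is 1 of the 35 members. Over all 22180 genes the interaction was called higher for 62 (0.28%) and lower for 81 (0.365%). Ifit1bl1, a relative of Ifit1, had an interaction of 1.75 ± 0.31 (SE; limma adjusted p = 0.0218), called in 6 of 12 fits with 1 array left out and lost without WT replicate 1 or 2, SKO replicate 1 or 2, or DKO replicate 1 or 2 (adjusted p up to 0.0751). Ifitm1, a restrictor of viral entry, had -1.24 (limma adjusted p = 0.0122), called in all 12. The neutrophil markers Retnlg, S100a8 and S100a9 had -4.52, -4.15 and -2.94 (limma adjusted p = 0.0122, 0.0103 and 0.0147), called in 12, 12 and 9 of the 12; S100a9 was lost without SKO replicate 2 or DKO replicate 1 or 2 (adjusted p up to 0.0525). Aqp8, a water channel of colonocytes, had 1.51 (limma adjusted p = 0.0112), called in 12 of 12. Synpo2, a smooth muscle gene, had 1.3 (limma adjusted p = 0.0212), called in 7 and lost without WT replicate 2, SKO replicate 1 or 2, or DKO replicate 1 or 2 (adjusted p up to 0.0684). Clps, a pancreatic enzyme cofactor, had 3.51 (limma adjusted p = 0.0335), called in 6 and lost without IL10KO replicate 3, SKO replicate 2 or 3, or any DKO array (adjusted p up to 0.0992). Clps was lower than in WT in IL10KO (-4.53), SKO (-1.62) and DKO (-2.635). Pancreatic acinar enzymes averaged 5.63 to 10.88 on the WT arrays and 4.76 to 5.57 on the others, and the part of this WT signal in the Clps interaction was not tested.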

How the results depend on the processing

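No paired analysis was possible because the replicate numbers were given in sample order and pair nothing. No result turned its direction while called. The count of members called in IL10KO against WT was 1, and 2 after quantile normalization or with array weights, with 0 to 3 over the single omissions; in DKO against IL10KO it was 1, and 2 after quantile normalization, with centred arrays, with array weights or without WT replicate 1 and the library labelled WT replicate 3 together, 3 with only the genotypes compared, and 0 to 3 over the omissions. In DKO against WT it was 0, and 1 without those 2 arrays, with 0 to 1 over the omissions. In DKO against SKO it was 0, and 14 with array weights, and in the interaction 0, 1 with array weights and 0 to 2 over the omissions. For most of these settings the share of all genes called is not given here, so the counts are not read against a background. At an unadjusted p under 0.05 the limma fit counted 1, 3, 8 and 9 of 32 members in DKO against WT, SKO against WT, DKO against SKO and the interaction, beside 2.92%, 2.05%, 4.77% and 15.7% of all genes.

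Over all genes, IL10KO against WT gave 1805 calls, 704 with only the genotypes compared, 329 without those 2 arrays and 783 to 3070 over the omissions. DKO against IL10KO gave 1284, 489, 846 and 425 to 2361 in the same order, and its split of 740 higher and 544 lower became 768 and 342 with centred arrays. DKO against WT gave 10, 33 with array weights, 78 without those 2 arrays and 5 to 69 over the omissions. SKO against WT gave 0, 59 without them and 0 to 55. DKO against SKO gave 10, 41 with only the genotypes compared, 1940 with array weights, 32 without those 2 arrays and 5 to 20. The interaction gave 143, 736 with array weights and 50 to 376 over the omissions. The iteration of the array weights stopped before it converged, and the cause of these moves was not tested. Genes as dim as Mx1, Trim30a and Ifnb1 lie near or below the lower quartile of an array (3.45 to 3.72), where no detection call says whether signal exceeds background.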
